A study of Mus musculus with 10 samples.

Results

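The genes described here are 10 transcriptional outputs and feedback inhibitors of the RAS-ERK pathway, namely *Spry1*, *Spry2*, *Spry4*, *Spred1*, *Spred2*, *Dusp4*, *Dusp6*, *Etv1*, *Etv4* and *Etv5*. They were picked by symbol, and all 10 were found among the 23230 features of the deposited FPKM matrix (fragments scaled to transcript length and to library size). RNA was sequenced from 10 mouse cultures at a passage below 10. All of them descend from C57BL/6 cortical astrocytes taken at postnatal day P5, which lack p16/p19 (the *Ink4a/Arf* locus) and carry a retroviral vector for human EGFRvIII, a constitutively active form of the EGF receptor. AstroEGFR* (n = 3) are these astrocytes as cultured, 1 library from each of 3 batches. PT (n = 4) are glioma propagating cells grown out of tumours that such astrocytes formed in CD1 Nude mice. Their batch of origin is not in the sample titles. It was read from the paper's charts of retained expression as 1 for PT1 and PT4, 2 for PT2 and 3 for PT3. AstroEGFR* *Zfp423* (n = 3) are the same 3 astrocyte batches after infection with a vector for *Zfp423*, a zinc finger transcription factor. Each group thus rests on few batches of primary cells that overexpress a human receptor. AstroEGFR* were grown with fetal bovine serum whereas PT had none and received EGF and FGF2, both of which activate ERK through their receptors, so medium and tumour step cannot be told apart in any comparison of PT with AstroEGFR*.

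Receptor tyrosine kinases such as EGFR load RAS with GTP, and RAS then drives the kinases RAF, MEK and ERK. Active ERK switches on transcription factors of the PEA3 group (*Etv1*, *Etv4* and *Etv5*), in part by relieving the repressor Capicua (CIC), and it also switches on its own brakes. Sprouty and Spred proteins act on the pathway at the level of RAS and RAF, and the dual-specificity phosphatases Dusp4 and Dusp6 remove the activating phosphates from ERK in the nucleus and in the cytoplasm. RNA levels of these genes are therefore widely read as a sign of pathway output, although phosphorylated ERK itself was not measured here. Activation of EGFR is a frequent lesion of malignant gliomas.

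Promoter windows of 250 bases before the transcription start were available from RefSeq (GRCm38.p6) for 7 of the 10 genes, 9 windows in all. Windows of a Sprouty, a Dusp and an Etv gene are printed. Capitals mark CGGAA (a form of the core bound by ETS factors) and TGAATG (a form of the core of the CIC site) on either strand. The *Spry2* window lies on the minus strand at chr14:105896820-105897069, that of *Dusp6* on the plus strand at chr10:99262981-99263230 and that of the downstream start of *Etv5* on the minus strand at chr16:22438369-22438618.
Spry2: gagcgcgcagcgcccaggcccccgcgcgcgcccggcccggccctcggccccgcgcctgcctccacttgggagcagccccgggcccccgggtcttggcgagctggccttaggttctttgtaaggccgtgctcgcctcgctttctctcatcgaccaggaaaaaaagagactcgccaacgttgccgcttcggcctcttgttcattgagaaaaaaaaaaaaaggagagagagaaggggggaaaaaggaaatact
Dusp6: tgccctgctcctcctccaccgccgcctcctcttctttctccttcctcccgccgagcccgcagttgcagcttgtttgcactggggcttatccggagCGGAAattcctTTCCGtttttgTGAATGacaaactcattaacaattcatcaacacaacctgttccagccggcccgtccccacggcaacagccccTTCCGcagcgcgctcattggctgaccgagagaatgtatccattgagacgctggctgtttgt
Etv5: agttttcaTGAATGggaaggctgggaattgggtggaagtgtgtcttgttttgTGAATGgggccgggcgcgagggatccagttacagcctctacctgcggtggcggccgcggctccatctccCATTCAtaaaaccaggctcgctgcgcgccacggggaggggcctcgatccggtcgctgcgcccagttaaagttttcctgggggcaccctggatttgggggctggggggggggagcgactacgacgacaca
CGGAA was present in the windows of *Dusp6* (3 copies), *Spred1* and *Spred2*, and in 25.2% of all 32851 mouse windows of this length. TGAATG, searched after these sequences had been read, was present in *Dusp6* (1 copy) and *Etv5* (3 copies) and in 10.9% of all windows. The longer forms CCGGAAGT for ETS (2.88% of all windows), which contains CGGAA, and TGAATGNA for CIC (3.2%), which contains TGAATG, were in none of the 9. TGANTCA for AP-1 (6.75%) and TGACGTCA for CRE (1.55%) were in none of them either. The *Spry2* window held none of these letters. Other forms of the ETS and CIC sites were not searched, so their absence is not shown for any window.

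Several libraries stood apart. Depth, which FPKM do not state, was estimated relative to PT1 from the commonest ratio of small values. It came to 0.0706 in AstroEGFR*3 and 0.0931 in PT3, against 0.491 to 0.949 in the 7 libraries besides these and PT1. The estimates for AstroEGFR*3 and PT3 are rough, since 22 and 15 features lay at the commonest ratio, against 63 to 113 in those 7 libraries. Small non-coding RNA took from 0.21% to 54.5% of the summed FPKM, with the highest share in AstroEGFR*3 *Zfp423*. *Zfp423* itself was listed at 4.3, 3.25 and 3.48 FPKM in AstroEGFR*, at 0.837, 2.78, 0.641 and 1.77 FPKM in PT, and at 15.7, 9.73 and 105 FPKM in the infected cultures, so each infected library was above its parent. *Cdkn2a*, which encodes p16 and p19, was above 0 in all 10 libraries (3.96 to 130 FPKM), and the values do not show which exons these reads came from. All 10 astrocyte markers were above 1 FPKM in each AstroEGFR* library, but in AstroEGFR*2 *Zfp423* only 7 were, and *Gfap*, the astrocyte filament protein, named after its values were seen, stood there at 1.11 FPKM. In AstroEGFR*1 *Zfp423* and AstroEGFR*2 *Zfp423* all 10 microglia markers were above 1 FPKM and summed to 1565 and 909 FPKM. Elsewhere at most 5 of them were above 1 FPKM and their sum was 1.23 to 36.7 FPKM. These are bulk libraries, in which fewer cells of a type and less RNA per cell cannot be told apart.

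Expression was highest for *Dusp6*, with a median of 176 FPKM over the 10 libraries, followed by *Spred1* (126 FPKM), *Etv5* (103 FPKM) and *Spry2* (52.9 FPKM). *Spry4*, *Spred2*, *Dusp4*, *Etv4* and *Spry1* had medians of 33.3, 27, 25.8, 20.4 and 14.9 FPKM, and *Etv1* had the lowest at 8.48 FPKM. Neighbours in this order overlapped, since each gene varied widely between libraries. The range was narrowest for *Etv4* (3.11-fold from lowest to highest library) and *Spred1* (3.99-fold), and widest for *Spry4* (30-fold) and *Etv1* (44.2-fold).

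**Figure D1:**
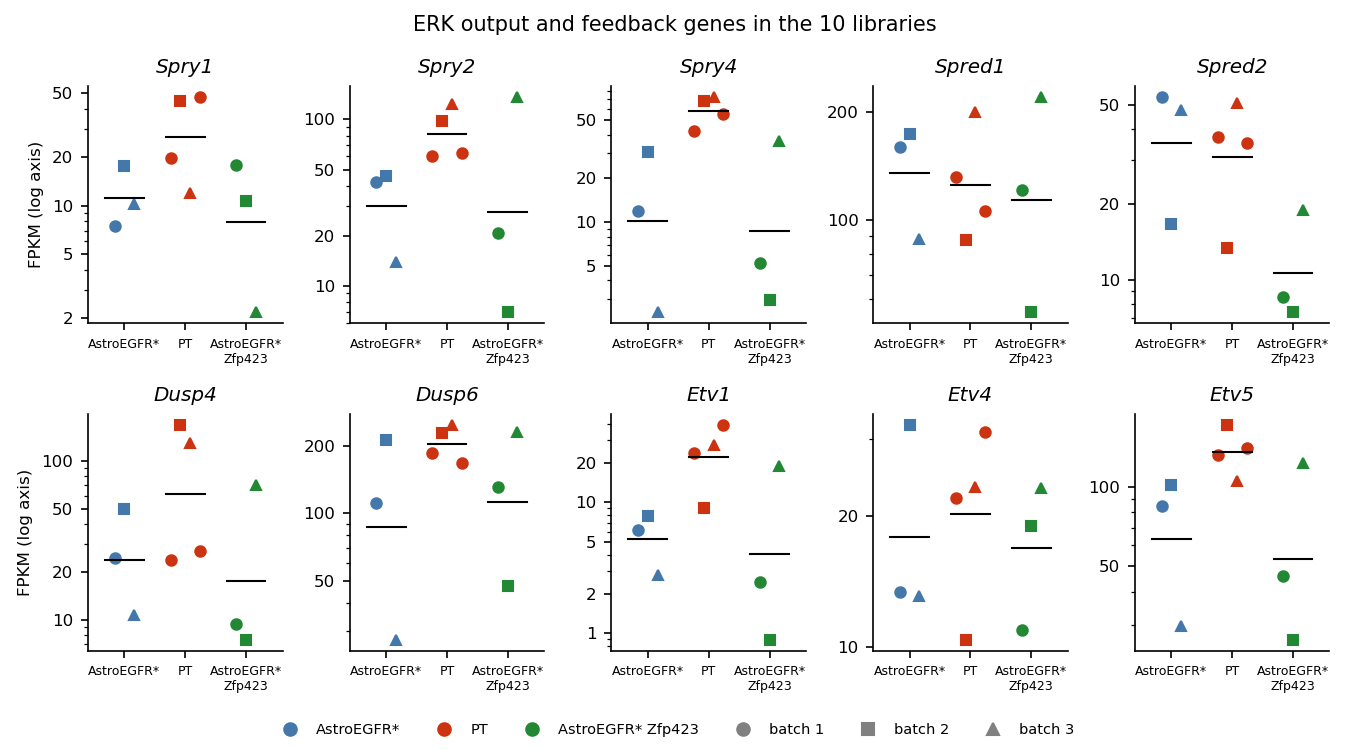
FPKM of the 10 genes (log axis, a scale of its own for each gene) in the 3 AstroEGFR*, 4 PT and 3 AstroEGFR* *Zfp423* libraries. Each point is a library, its shape gives the astrocyte batch, and the bar is the mean on the log2(FPKM + 1) scale. *Spry2*, *Spry4*, *Etv1* and *Etv5* are higher in every PT than in every AstroEGFR*, and the batch 3 infected library is the highest of its group for 9 of the 10 genes.

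The first comparison asked what separates tumour-derived PT from the astrocytes they came from. In it, 4 of the 10 genes, *Spry2*, *Spry4*, *Etv1* and *Etv5*, were higher in all 4 PT than in all 3 AstroEGFR*, as were 6.95% of the 12261 features tested, and none was lower in all PT (7.81% of features). None of the 10 passed the threshold of a Benjamini-Hochberg adjusted p of 0.05 in limma, which 1.24% of features did, so the values below describe differences that do not survive correction over all features. At an unadjusted p below 0.05 the same 4 genes were higher (background 5.88%) and none was lower (7.69%). With the astrocyte batch as a block, *Spry1* and *Dusp4* joined them, so that 6 were higher at an unadjusted p below 0.05 in limma (background 13.2%) and none was lower (12.3%). None of the 6 passed the adjusted threshold under the block, where the smallest adjusted p in limma was 0.0841, for *Spry4*. In total 8 of 10 were above 0 on the log2 fold change scale, with a median of 1.21, against 52.1% of all features and a median of 0.03. The members' median was 0.67 without AstroEGFR*3, again with 8 of 10 above 0, and 0.56 without both batch 3 libraries, with 7 above 0. The members were named with earlier results of these data known, and their number gives no test of the group.

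Among the Sprouty genes, *Spry4* differed most. Its FPKM were 12, 30.4 and 2.42 in AstroEGFR*1 to 3, and 42.4, 67.7, 72.6 and 55.7 in PT1 to PT4. Every PT lay above every AstroEGFR*, and AstroEGFR*3 was the lowest library of all 10. On the log2 scale the fold change was 2.41 (SE 0.67, adjusted p = 0.161 in limma, two-sided exact permutation p = 0.0286, the smallest that 3 against 4 libraries allow), and it was 1.56 without AstroEGFR*3. *Spry2* was listed at 42.1, 45.7 and 14 FPKM in AstroEGFR* and at 60.1, 97.7, 124 and 62.4 FPKM in PT. Here too the groups did not overlap, with PT1 closest to the astrocytes. In log2 terms PT were higher by 1.42 (SE 0.47, adjusted p = 0.240 in limma, exact permutation p = 0.0286), and by 0.89 without AstroEGFR*3. *Spry1* had 7.46, 17.7 and 10.2 FPKM in AstroEGFR* and 19.7, 44.8, 12 and 47.3 FPKM in PT, and PT3 lay within the range of the astrocytes. Its log2 fold change of 1.20 had a 95% confidence interval from -0.02 to 2.42 (adjusted p = 0.376 in limma). With the batch as a block the interval ran from 0.12 to 2.31 (adjusted p = 0.165 in limma).

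The Spred genes, which encode membrane-bound relatives of Sprouty that recruit the RAS inhibitor neurofibromin, overlapped between the groups. *Spred1* had 160, 173 and 88.6 FPKM in AstroEGFR* and 132, 87.8, 200 and 106 FPKM in PT. For *Spred2* the values were 53.8, 16.6 and 47.7 FPKM in AstroEGFR* and 37.2, 13.3, 50.6 and 35 FPKM in PT, where the lowest library of each group was that of batch 2. The log2 fold changes were -0.11 for *Spred1*, with an interval from -0.98 to 0.77, and -0.18 for *Spred2*, with an interval from -1.46 to 1.09.

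The phosphatase *Dusp6* had 112, 212 and 27.2 FPKM in AstroEGFR* and 186, 228, 249 and 167 FPKM in PT. The PT values were close together, while those of AstroEGFR* spread from below to within their range, since AstroEGFR*2 was above PT1 and PT4. The log2 fold change was 1.23 (SE 0.63, adjusted p = 0.452 in limma). It was 0.41 without AstroEGFR*3 and 1.87 without AstroEGFR*2. *Dusp4* stood at 24.6, 49.4 and 10.7 FPKM in AstroEGFR* and at 23.7, 169, 128 and 27.1 FPKM in PT. The PT libraries fell apart by batch, since PT1 and PT4, both of batch 1, lay near AstroEGFR*1 and only PT2 and PT3 were far above. The log2 fold change of *Dusp4* was 1.34 with an interval from -0.58 to 3.26 (adjusted p = 0.546 in limma). It was 0.80 without AstroEGFR*3 and 0.86 without PT2, and with the batch as a block its interval ran from 0.021 to 3.15 (adjusted p = 0.192 in limma).

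Of the PEA3 transcription factors, *Etv1* was at 6.21, 7.83 and 2.82 FPKM in AstroEGFR* and at 23.8, 9.14, 27.4 and 39.4 FPKM in PT. PT2 was just above AstroEGFR*2, and the other 3 PT were well above all astrocytes. The log2 difference was 1.89 (SE 0.51, adjusted p = 0.147 in limma, exact permutation p = 0.0571). *Etv5* had 84.2, 102 and 29.6 FPKM in AstroEGFR* and 132, 172, 105 and 141 FPKM in PT. PT3 and AstroEGFR*2 were nearly level at the border between the groups. The log2 fold change was 1.08 (SE 0.44, adjusted p = 0.338 in limma, exact permutation p = 0.0286), and it was 0.54 without AstroEGFR*3. *Etv4* behaved unlike its relatives, with 13.4, 32.3 and 13.1 FPKM in AstroEGFR* and 21.9, 10.4, 23.2 and 31.1 FPKM in PT, and a log2 fold change of 0.17 (interval -0.88 to 1.21). AstroEGFR*2 was the highest and PT2 the lowest library of these 7, so that batch 2 ran opposite to the others.

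**Figure D2:**
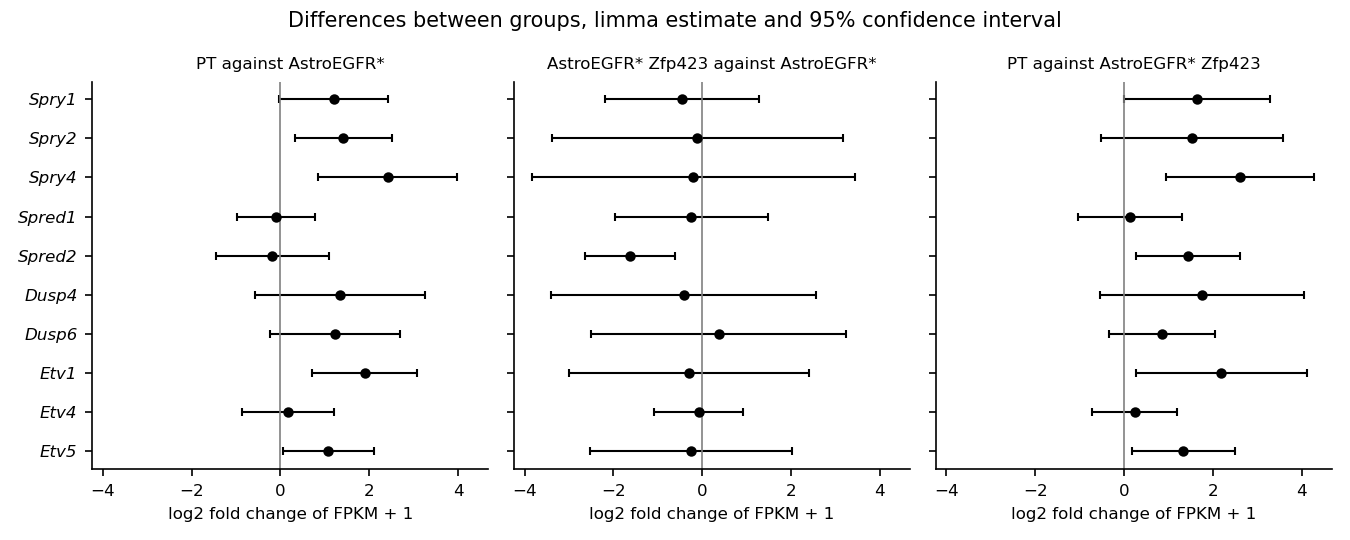
Log2 fold change of FPKM + 1 for each gene in the 3 comparisons, as points with 95% confidence intervals from limma, and with a line at 0. The intervals of *Spry2*, *Spry4*, *Etv1* and *Etv5* lie above 0 in PT against AstroEGFR*, that of *Spred2* lies below 0 in AstroEGFR* *Zfp423* against AstroEGFR*, and none of the 30 differences passed the adjusted threshold.

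When each PT was set against the astrocytes of its own batch, 1 library against 1 and therefore without a test, the size of the difference depended on the batch. In batch 3, PT3 was above AstroEGFR*3 for 10 of 10 genes with a median log2(FPKM + 1) difference of 2.34, and 7 genes were higher by at least 1 against 8.94% of features. These are the 2 libraries of lowest depth. In batch 1 the median difference was 0.66 for PT1 and 0.66 for PT4, with 3 and 4 genes higher by at least 1 (7.98% and 9.84% of features) and none lower by that much (10.6% and 10.7%). PT2 differed from AstroEGFR*2 by a median of 0.48, with 4 genes higher by at least 1 (13.9% of features) and 1, *Etv4*, lower by at least 1 (16.5%). In all 4 pairs, of which those of PT1 and PT4 share AstroEGFR*1, 6 members were higher (21.7% of features) and none was lower (18.2%). *Spry4* was higher by at least 1 in each, at 1.74, 1.13, 4.43 and 2.13 for PT1 to PT4. The differences of *Spry1* were 1.29, 1.29, 0.22 and 2.51, those of *Etv1* 1.78, 0.20, 2.90 and 2.48, and those of *Dusp6* 0.73, 0.11, 3.15 and 0.58. *Spry2* and *Etv5* were the other two, with their largest difference in batch 3. Without both batch 3 libraries, *Spry1* joined the 4 genes whose groups did not overlap (background 14.9% higher and 14.9% lower), *Spred1* was lower in all remaining PT, and the log2 fold changes were 0.32 for *Dusp6*, 0.45 for *Dusp4*, 0.70 for *Spry2*, 1.45 for *Spry4*, 1.44 for *Etv1* and 0.67 for *Etv5*. Of these, those of *Dusp6*, *Dusp4*, *Spry2*, *Spry4* and *Etv5* were smaller by more than 1.5 times without these libraries.

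The rest of the pathway was measured in the same fit, from lists of its parts. Of 14 receptors that feed ERK, 12 passed the filter on low values, 2 fell and none rose at an adjusted p below 0.05 (background 0.922% lower and 0.318% higher). These were *Pdgfrb*, the beta receptor of PDGF (42.1, 27.9 and 65.7 FPKM in AstroEGFR*, 1.91, 0.182, 4.94 and 0.849 FPKM in PT, log2 fold change -4.14, SE 0.57, adjusted p = 0.0200 in limma), and *Fgfr2*, a receptor of FGF ligands (25.1, 24.1 and 21.7 FPKM against 6.41, 5.57, 2.51 and 7.11 FPKM, log2 fold change -2.01, SE 0.33, adjusted p = 0.0341 in limma). *Egfr*, named because it was the driver of the model and chosen after its values were seen, ran from 7.81 to 362 FPKM in AstroEGFR* and from 18.9 to 134 FPKM in PT. Whether reads of the human vector were counted to the mouse gene is not given in the sources used here. *Pdgfrb* is also a marker of mesenchymal cells and is counted again below.

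None of the 16 adaptors and RAS proteins passed the threshold. The smallest p-values were those of *Rras2*, a RAS relative (log2 fold change -1.62, adjusted p = 0.125 in limma), and *Shc1*, an adaptor of receptor kinases (-0.93, adjusted p = 0.298 in limma). Of the 15 genes for RAF, MEK, ERK, their scaffolds and the RSK kinases, 14 were tested and 0 passed. None of them had an unadjusted p below 0.05 either, and their median log2 fold change was 0.01. *Map2k2* and *Map2k1*, which encode MEK2 and MEK1, came first with log2 fold changes of 0.45 (interval -0.20 to 1.10) and 0.26 (interval -0.21 to 0.73).

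Of 22 other negative regulators 17 were tested, 1 fell and none rose. The one that fell was *Dusp1*, an immediate early phosphatase of the stress kinases and ERK, with 38.2, 53.8 and 32 FPKM in AstroEGFR* and 13.1, 5.47, 6.29 and 11.2 FPKM in PT (log2 fold change -2.13, SE 0.35, adjusted p = 0.0372 in limma). *Dok1*, an adaptor that recruits RAS inhibitors, had a log2 fold change of -1.64 (adjusted p = 0.064 in limma). Among 19 other genes that ERK induces, 18 were tested and 1 fell, the ephrin receptor *Epha4*, from 18.1, 20.1 and 10 FPKM to 0.476, 1.43, 0.113 and 0.365 FPKM (log2 fold change -3.43, SE 0.38, adjusted p = 0.0109 in limma). *Hbegf*, an EGF receptor ligand, followed with -2.05 (adjusted p = 0.0627 in limma). At an unadjusted p below 0.05 in limma, 2 of these 18 were higher and 5 lower (background 5.88% and 7.69%). Of 17 tested of 18 other ETS factors, CIC and its partners, 0 passed, and *Atxn1*, a partner of CIC, and *Elf4*, an ETS factor, had log2 fold changes of -1.32 and -1.48 (adjusted p = 0.142 and 0.161 in limma). The median log2 fold change was -0.68 for the receptors, 0.02 for the adaptors, 0.18 for the other negative regulators, -0.28 for the other ERK-induced genes and -0.11 for the ETS and CIC list, beside 1.21 for the 10 members, or 0.67 for them without AstroEGFR*3.

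The second comparison asked what forced expression of *Zfp423* does to AstroEGFR*. No member passed the threshold in limma with the batch as a block, nor did any of the 12366 features tested (background 0%). At an unadjusted p below 0.05 there were 913 features, or 7.38% (3.3% higher and 4.08% lower), and 1 member. Of the 10, 1, *Dusp6* (0.37), was above 0 on the log2 fold change scale (51.7% of features). None was separated between the groups in either direction (5.68% of features higher, 5.87% lower). Without AstroEGFR*3 *Zfp423*, 3 members were lower in every infected library and 0 higher (12.2% of features lower, 13.3% higher). Without both batch 3 libraries, 7 were lower and 0 higher (20.7% and 22.9% of features). The member at an unadjusted p below 0.05 was *Spred2*, at 53.8, 16.6 and 47.7 FPKM before infection and 8.51, 7.41 and 18.9 FPKM after it. It was lower in all 3 batches, although the groups overlapped because AstroEGFR*2 was low from the start. The log2 fold change was -1.63 (SE 0.37, adjusted p = 0.628 in limma). For the other 9 members the confidence intervals included 0 and most were wide, from -3.84 to 3.44 for *Spry4* and from -3.39 to 3.16 for *Spry2*. No exact permutation test of 3 against 3 libraries can go below 0.1.

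Paired by number, the batches went opposite ways. In batch 2 all 10 members were lower in the infected culture, with a median log2(FPKM + 1) difference of -2.03, and 8 were lower by at least 1 (12.1% of features, with 13% higher). In batch 1, 8 were lower, with a median of -0.92, and 4 were lower by at least 1 (8.1% of features) while *Spry1* was higher by 1.15 (11.7% of features were higher by at least 1). In batch 3, 8 members were higher, with a median of 2.21, and 7 were higher by at least 1 (10.3% of features). *Spry1* and *Spred2* were lower there, by 1.82 and 1.29 on the log2 scale, as were 17.2% of features by at least 1. Lower by at least 1 in batch 2 and higher by at least 1 in batch 3 were 7 members and 2.76% of features, and the reverse held for no member and 5.22% of features. Each of these is a difference between single libraries and has no replicate check. The directions also rest on pairing the cultures by number. Over 12476 features, deviations from the group means had Pearson's r of 0.241, -0.111 and -0.262 in the pairs of batches 1, 2 and 3. They had r of 0.224 between AstroEGFR*2 and AstroEGFR*3 *Zfp423*, and of 0.308 between AstroEGFR*3 and AstroEGFR*2 *Zfp423*. What lies behind these values was not tested.

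*Spry4* shows the pattern in full. It was listed at 12, 30.4 and 2.42 FPKM in AstroEGFR*1 to 3 and at 5.3, 2.92 and 36.3 FPKM in the infected cultures of the same batches. The order of the 3 batches was therefore turned over, with batch 3 going from the lowest library of its group to the highest. *Spry2* went from 42.1 to 20.7 FPKM in batch 1, from 45.7 to 6.93 FPKM in batch 2 and from 14 to 137 FPKM in batch 3. *Dusp6* had 130, 47.5 and 230 FPKM after infection, and *Dusp4* had 9.44, 7.46 and 70.6 FPKM. For both phosphatases batch 2 was the lowest and batch 3 the highest infected library. *Etv1* was at 2.45, 0.891 and 19 FPKM and *Etv5* at 46, 26.2 and 124 FPKM after infection, again with batch 3 highest. *Spred1* had 121, 55.1 and 220 FPKM, in the same order of batches, and *Etv4* 10.9, 18.9 and 23.1 FPKM. *Spry1* was the exception, with 17.8, 10.7 and 2.18 FPKM, so that batch 3 was its lowest library of all 10.

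**Figure D3:**
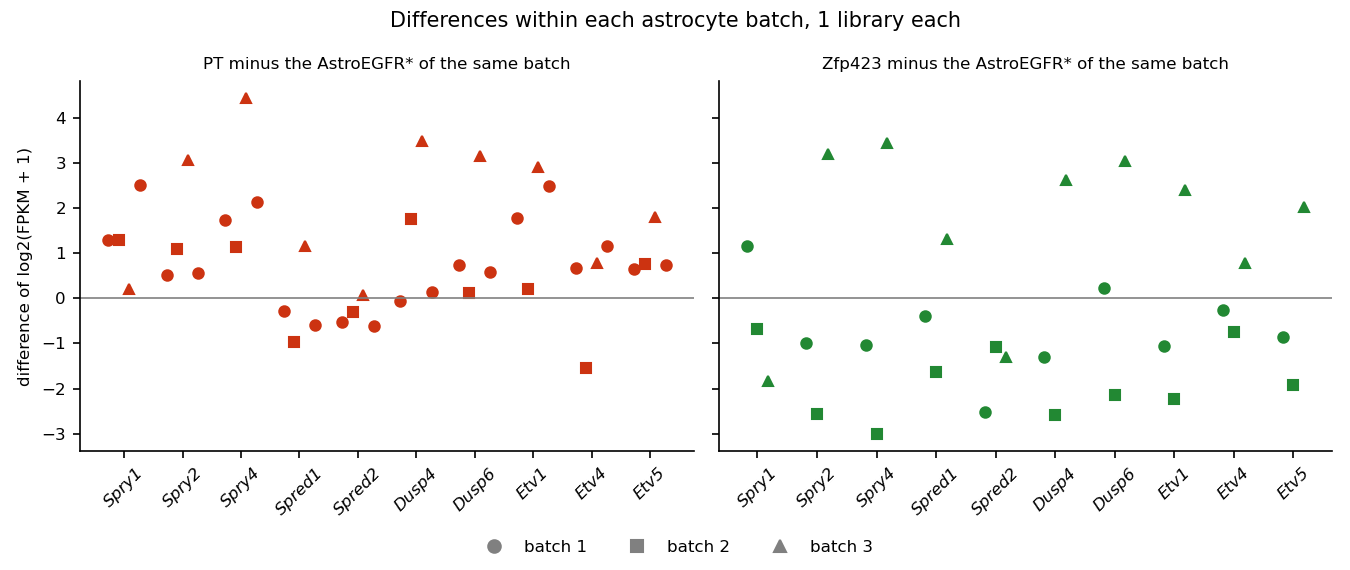
Difference of log2(FPKM + 1) within each astrocyte batch, 1 library against 1, for PT minus AstroEGFR* (left) and infected minus AstroEGFR* (right). Shapes give the batch and the line marks 0. On the right, the batch 2 points are all below 0, and the batch 3 points are above 0 for 8 of the 10 genes.

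The lists for the rest of the pathway also held no call in this comparison. At an unadjusted p below 0.05, 2 receptors, 1 other ERK-induced gene and 1 gene of the ETS and CIC list were lower, and none of the adaptors, kinases or other negative regulators differed. The median log2 fold change was -0.25 for the 10 members and between -0.27 and 0.15 for those lists, beside 0.02 for all features. The members' median was 0.037 without batch 1, 0.62 without batch 2 and -1.52 without batch 3.

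PT were also set against AstroEGFR* *Zfp423*, a comparison that shares the PT libraries with the first one, so the 2 sets of values are not independent. All 10 members were above 0 on the log2 fold change scale (48.1% of features were), with a median of 1.49. None passed the threshold in limma (0.0161% of features did), and 5 were higher at an unadjusted p below 0.05 (background 7.23%) and none lower (8.74%), namely *Spry1*, *Spry4*, *Spred2*, *Etv1* and *Etv5*. With the batch as a block *Spry2* and *Dusp4* joined these 5 in limma (background 8.81% higher and 10.4% lower), again with no member past the adjusted threshold. *Spry4* alone did not overlap between the groups (7.23% of features were higher in every PT, 7.28% lower). It had 36.3 FPKM in the highest infected library and 42.4 FPKM in the lowest PT, and a log2 fold change of 2.61 (SE 0.72, adjusted p = 0.209 in limma). Without AstroEGFR*3 *Zfp423*, 7 members were higher in every PT (13.9% of features higher, 16.2% lower). Without both batch 3 libraries 8 were (18% higher, 20.4% lower). These calls depended on the infected library of batch 3. Without it 4 members were called higher, *Spry2* (log2 fold change 2.66), *Spry4* (3.58), *Etv1* (3.18) and *Etv5* (1.93), with limma adjusted p-values of 0.0353, 0.00266, 0.0324 and 0.0283, and 629 features passed (5.05% of those tested, with 1% higher). That fit holds 2 infected libraries, both with all 10 microglia markers above 1 FPKM, and the part of those cells in these calls was not tested. Without the infected library of batch 2 no member was called, and the log2 fold changes of *Spry2*, *Etv5* and *Dusp6* were 0.60, 0.83 and 0.24, against 1.53, 1.33 and 0.86 with all libraries. That of *Spry1* was 1.65 with all libraries and 0.91 without the infected library of batch 3. Leaving out both batch 3 libraries, 2 members, *Spry4* and *Etv5*, and 589 features passed (4.72%, with 1.11% higher).

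Over the 10 libraries the members fell into a closely tracking group and a loose remainder. Of 45 pairs of members, 42 had a Pearson's r of log2(FPKM + 1) above 0, with a median of 0.52. The highest was 0.95, between *Spry4* and *Etv5*. *Spry2*, *Spry4*, *Dusp4*, *Dusp6*, *Etv1* and *Etv5*, grouped after these values were seen, had r from 0.63 to 0.95 in all 15 pairs. The split was not sharp, since *Spred1* had r from 0.52 (*Dusp4*) to 0.73 (*Spry2*) with these genes. *Spry1* had r below 0.32 with every other member and -0.42 with *Spred1*, and *Spred2* and *Etv4* had none above 0.57. These are descriptions over 10 libraries that share batches, media and depths, and carry no test.

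**Figure D4:**
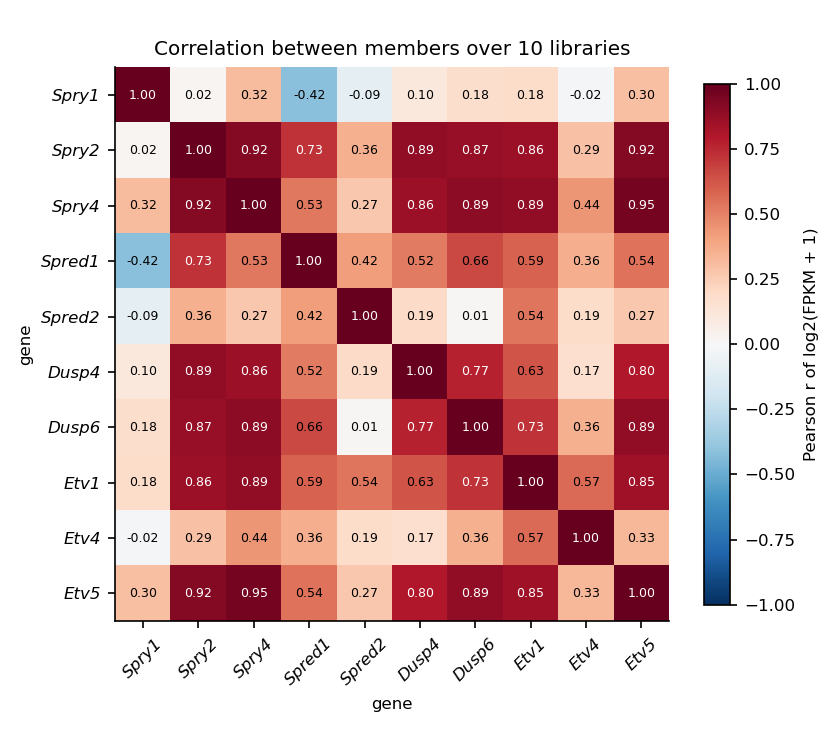
Pearson's r of log2(FPKM + 1) between each pair of the 10 genes over the 10 libraries, from -1 (blue) to 1 (red), printed in each cell. *Spry2*, *Spry4*, *Dusp4*, *Dusp6*, *Etv1* and *Etv5* form the red block, and the row of *Spry1* is pale.

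Outside the members, the 12476 features that averaged 1 FPKM or more included many with a like pattern. The closest to *Spry4* were *Oxr1* (r = 0.97) and *Etv5*, and the closest to *Etv5* were *Lonrf2* (0.98) and *Wscd1* (0.97). For *Spry2* these were *Sema6d* (0.97) and *Zfp238* (0.96), for *Spry1* *Pip4k2a* (0.91) and *Insig1* (0.90), for *Spred1* *Cdc14a* (0.97) and *Gm5595* (0.96), and for *Spred2* *Ptdss2* (0.98) and *Mpzl1* (0.96). *Dusp4* was nearest to *Tapt1* (0.97) and *Ddx19a* (0.97), *Dusp6* to *Vta1* (0.95) and *Chml* (0.94), *Etv1* to *4632415L05Rik* (0.97) and *Trim9* (0.95), and *Etv4* to *Hspbp1* (0.88) and *Dazap1* (0.86). Only *Spry4* had another member among its nearest pair.

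Markers of fibroblasts and meninges were lowest where the members were highest. Each gene was centred on its mean over the 10 libraries, and the median over the 10 members was taken in each library. That median was 0.46, 0.93, 0.99 and 0.64 in PT1 to PT4 and 0.81 in AstroEGFR*3 *Zfp423*, and the 9 markers of fibroblasts and meninges summed there to 142, 47.9, 536, 50.3 and 441 FPKM. These 5 libraries had both the highest member medians and the lowest marker sums. AstroEGFR*2 and AstroEGFR*1 followed with medians of 0.39 and -0.30 and sums of 1399 and 1676 FPKM. The lowest members were found in AstroEGFR*1 *Zfp423*, AstroEGFR*3 and AstroEGFR*2 *Zfp423*, with medians of -0.93, -1.40 and -1.57 and sums of 6333, 7995 and 9681 FPKM, so from the sixth library on the order of both measures was the same. In these 3 libraries 9, 9 and 8 of the 9 markers were above 1 FPKM, while in PT 1 to 8 were, and no marker was at 0 outside AstroEGFR*3 *Zfp423*, where 2 were. In PT against AstroEGFR* 2 of the 9 fell, *Acta2*, a smooth muscle actin (log2 fold change -7.78, SE 0.86, adjusted p = 0.0109 in limma), and *Pdgfrb*, given above. The part of these cells, or of such genes in the astrocytes themselves, in the levels of the 10 members was not tested.

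The microglia markers ran opposite to the members only in part. They were high in AstroEGFR*1 *Zfp423* and AstroEGFR*2 *Zfp423*, where the members were low. AstroEGFR*3 had a sum of 3.66 FPKM with a member median between those of these 2 libraries. The part of microglia in the levels of the members was not tested. Astrocyte markers summed to 346 and 84.5 FPKM in the infected cultures of batches 1 and 2, to 1042 FPKM in that of batch 3, and to 398 to 1161 FPKM in the other libraries, with AstroEGFR*3 the highest. Oligodendrocyte lineage markers were highest in PT1 and PT4 (1432 and 1784 FPKM, against 66.5 to 311 FPKM elsewhere), neuron markers summed to 35 to 167 FPKM with 2 or 3 of 9 above 1 FPKM, and endothelial markers summed to 0.426 to 14.5 FPKM. Of the astrocyte, oligodendrocyte, neuron, microglia and endothelial markers 10, 7, 5, 1 and 1 were tested, and none passed the threshold in PT against AstroEGFR*, the smallest p-values being those of *Gja1* and *Aqp4*, *Olig2* and *Sox10*, *Stmn2* and *Gad1*, *Cd68*, and *Flt1*, with adjusted p-values in limma from 0.304 to 0.926.

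**Figure D5:**
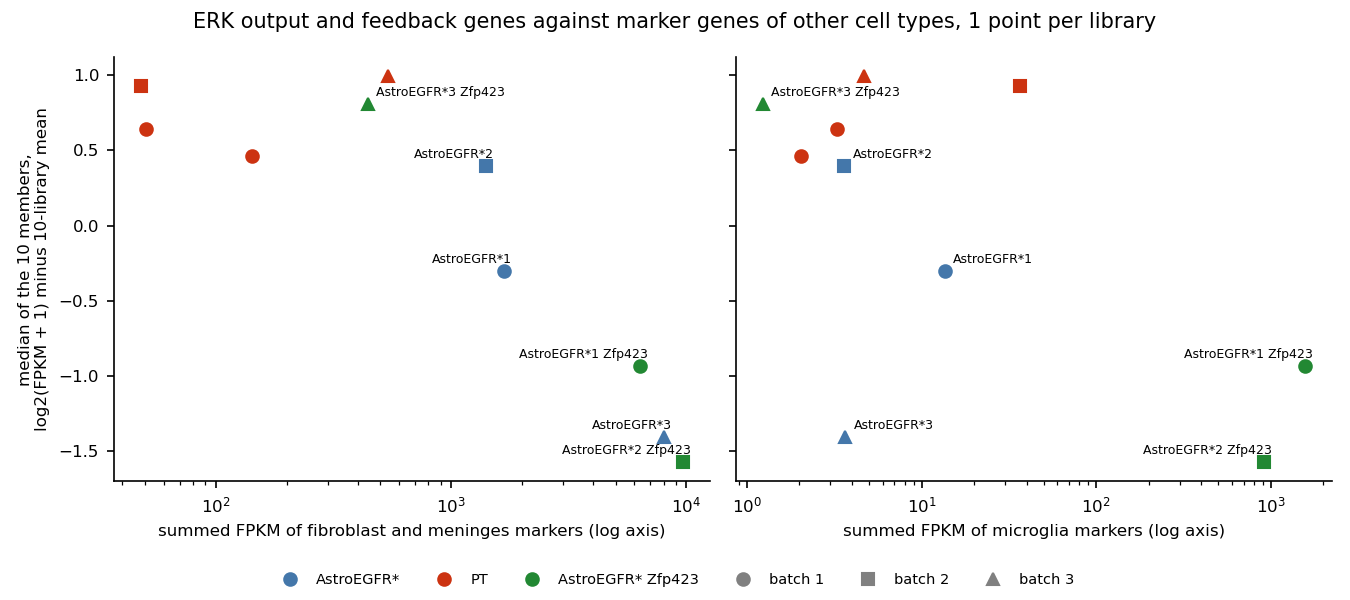
Median of the 10 genes, as log2(FPKM + 1) minus each gene's mean over the 10 libraries, against the summed FPKM (log axis) of 9 fibroblast and meninges markers (left) and 10 microglia markers (right). Each point is a library, its colour gives the group and its shape the batch. On the left the members are lowest in the 3 libraries with sums from 6333 to 9681 FPKM, and on the right AstroEGFR*3 is low in both measures.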

How the data were processed

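RNA of 10 mouse cultures was sequenced, 1 library per culture, in 3 groups. FPKM of 23230 features, listed by symbol, were deposited in a single table, of which every column was used. According to the submitters' processing notes TopHat 1.3, Cuffnorm and the build mm9 were used. The labels name a TruSeq kit and a lentiviral *Zfp423* vector, the paper stranded libraries after removal of ribosomal RNA and a retroviral vector.

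FPKM are not counts, so features that averaged 1 FPKM or more were compared as log2(FPKM + 1) with limma 3.58.1 in R 4.3.3 (linear model, empirical Bayes, mean-variance trend). Benjamini-Hochberg adjustment covered all features tested, and the threshold was 0.05. Such fold changes understate those of low genes. PT and AstroEGFR* were compared without a block and AstroEGFR* *Zfp423* and AstroEGFR* with the batch as a block. The batch of each PT was taken from the study. Deviations from the group means correlated at 0.35 to 0.5 between AstroEGFR* and PT of the same batch and at -0.34 to -0.09 between batches, so the batches, which share a cell line, pair these samples. Between AstroEGFR* and AstroEGFR* *Zfp423* they correlated at 0.241, -0.111 and -0.262 within batches 1, 2 and 3, and at -0.23 to 0.31 between batches. The highest between batches were 0.308, of AstroEGFR*3 with AstroEGFR*2 *Zfp423*, and 0.224, of AstroEGFR*2 with AstroEGFR*3 *Zfp423*. Pairing was thus not seen in the deviations there. That block and the within-batch differences rest on the numbers of the cultures. The paper reports much stronger *Zfp423* overexpression in AstroEGFR*3, and AstroEGFR*3 *Zfp423* had the highest value, 105 FPKM. Single genes were also tested by two-sided exact permutation. The fit was tested on simulated data. The rest was done in Python 3.11.15.

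The 10 members and the lists (receptors, adaptors and RAS proteins, kinases and scaffolds, other negative regulators, other ERK-induced genes, ETS and CIC genes, markers of 6 cell types) were chosen with earlier results of these data known. Named were all members, from each other list the genes past the threshold and the 2 with the smallest p in PT against AstroEGFR*, the 2 features most like each member, *Zfp423* and *Cdkn2a*. *Gfap* and *Egfr* were named outside this rule, after their values were seen. The paper describes the astrocyte batches as independent, the labels tie no culture to an animal, and PT1 and PT4 share a batch, so p-values measure the spread between cultures. Promoter sequences came from RefSeq, and no genome of the files' build was used here.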

Additional observations from a re-analysis of the deposited data

Results flagged for a closer look

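The difference between the infected and the parent culture had opposite signs in batches 2 and 3 for 7 of the 10 members, each by at least 1 on the log2(FPKM + 1) scale, lower in batch 2 and higher in batch 3 as were 2.76% of 12230 features. The difference in batch 3 minus that in batch 2 was 5.76 for *Spry2*, 6.45 for *Spry4*, 2.94 for *Spred1*, 5.19 for *Dusp4*, 5.17 for *Dusp6*, 4.61 for *Etv1* and 3.94 for *Etv5*. There is 1 library on each side of each difference, so this contrast between batches was not tested. It also rests on pairing by number, where deviations from the group means correlated at -0.111 in batch 2 and -0.262 in batch 3. With the parent of the other of these batches, they correlated at 0.308 for AstroEGFR*2 *Zfp423* and at 0.224 for AstroEGFR*3 *Zfp423*. AstroEGFR*3, the parent in batch 3, was also among the 2 libraries of lowest depth. Marker sums of other cell types moved too. From parent to infected culture those of fibroblasts and meninges went from 1399 to 9681 FPKM in batch 2 and from 7995 to 441 FPKM in batch 3, those of microglia from 3.62 to 909 FPKM and from 3.66 to 1.23 FPKM, and those of astrocytes from 627 to 84.5 FPKM and from 1161 to 1042 FPKM. Their part in the opposite signs was not tested.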

How the results depend on the processing

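No member passed the threshold in PT against AstroEGFR* or AstroEGFR* *Zfp423* against AstroEGFR* under any alternative run, and adjusted p-values in limma ranged from 0.0648 to 0.996 in the first and from 0.254 to 0.9998 in the second. The signs of *Spry1*, *Spry2*, *Spry4*, *Dusp4*, *Dusp6*, *Etv1* and *Etv5* in the first comparison held under all of them. The cause of the changes below was not tested.

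Features called in PT against AstroEGFR*, 152 in all, were 62 with all 10 libraries in 1 fit, 475 with the astrocyte batch as a replicate block, 59 with PT1 and PT4 averaged, 8 without both batch 3 libraries (an alternative chosen after seeing the data) and 7 to 123 with each library left out (7 without AstroEGFR*1, 54 without AstroEGFR*3, 97 without PT1, 70 without PT2 and 58 without PT4). For AstroEGFR* *Zfp423* against AstroEGFR* they were 2 with no replicate block and 0 to 51 with each batch left out (51 without batch 2). For PT against AstroEGFR* *Zfp423*, 2 in all, they were 0 with a pseudocount of 0.1, with no filter on low values or with PT1 and PT4 averaged, 28 with all 10 libraries, 20 with the replicate block, 589 without both batch 3 libraries and 0 to 629 with each library left out (213 without PT2, 4 without PT3, 629 without AstroEGFR*3 *Zfp423*). Members called there were 2 without both batch 3 libraries and 0 to 4 with each library left out. The block changed no call of a member at the adjusted threshold.

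With each library left out, the log2 fold change in PT against AstroEGFR* ran from -0.41 to 0.071 for *Spred1*, from -0.70 to 0.20 for *Spred2* and from -0.044 to 0.58 for *Etv4*, and *Etv4* was at -0.11 without both batch 3 libraries. With each batch left out, AstroEGFR* *Zfp423* against AstroEGFR* ran from -1.25 to 0.23 for *Spry1*, from -1.77 to 1.11 for *Spry2*, from -2.02 to 1.20 for *Spry4*, from -1.02 to 0.45 for *Spred1*, from -1.93 to 0.66 for *Dusp4*, from -0.96 to 1.63 for *Dusp6*, from -1.64 to 0.66 for *Etv1*, from -0.50 to 0.25 for *Etv4* and from -1.39 to 0.58 for *Etv5*. *Spred2* kept its sign, from -1.91 to -1.18. PT against AstroEGFR* *Zfp423* ran from -0.38 to 0.61 for *Spred1* and from -0.047 to 0.55 for *Etv4*. FPKM carry no counts, so the counting error of each value is unknown. By the estimated depths it would be larger in AstroEGFR*3 and PT3 than in the other libraries.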
